A study of Mus musculus with 2 samples.

Results

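This account concerns sorted spleen cells that carried transcripts of a cytotoxic or natural killer (NK) type. Members were the cells with at least 1 unique molecular identifier (UMI, 1 counted transcript) of at least 2 of 6 genes: Nkg7, Ccl5, Klrd1, Klrk1, Eomes and Ctsw. Members were thus chosen by the UMI counts of these 6 genes. After cells with fewer than 200 genes or over 25% mitochondrial counts were removed, 195 of 13747 cells of the LatY136F library and 236 of 12834 cells of the LatY136F CD45-KO library met this rule, 431 of 26581 in all. The other 13552 and 12598 cells are called the remaining cells. Because the same counts chose the members, all contrasts between members and remaining cells are descriptions.

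The study compared spleen cells of LatY136F mice with those of LatY136F CD45-KO mice, all 8 to 9 weeks old, sorted as CD3+CD5+ and captured on the BD Rhapsody system, with 1 library per genotype. LatY136F is a point mutation of the adaptor LAT, present in both groups, that removes the tyrosine to which the phospholipase PLC-gamma binds, and such mice are known for a lymphoproliferative disorder of Th2-type CD4 T cells. CD45, encoded by Ptprc, is the phosphatase that keeps the receptor kinases Lck and Fyn active. Ptprc, the targeted gene, was at 1752 counts scaled to the group's total UMIs (CPM) in remaining LatY136F cells and 1158 CPM in remaining CD45-KO cells, and at 2050 and 1411 CPM in members. The labels give neither the deleted part of the gene, so the Ptprc level does not check the label, nor the number of mice in a library. No test between genotypes was possible with 1 library each. All intervals are 95% intervals that cover counting error only.

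NK cells and cytotoxic T cells kill by releasing granules that hold perforin, which opens the target's membrane, and granzymes, proteases that enter through it. The T-box factors Eomes and T-bet (Tbx21) drive this programme. Nkg7 is a membrane protein of cytotoxic granules, Ctsw a protease of the same cells, Ccl5 a chemokine stored by effector T cells, and Klrd1 (CD94) and Klrk1 (NKG2D) are lectin-like receptors of NK cells and some T cells. T cells carry a receptor complex (Trac, Cd3e) that NK cells lack, while NK cells carry Ncr1 (NKp46) and the signalling adaptor Tyrobp. In the mouse genome (GRCm38) Klrd1 (chr6:129591782-129598775) and Klrk1 (chr6:129610323-129623864) are neighbours on chromosome 6, Nkg7 lies at chr7:43437073-43438249 and Eomes at chr9:118478212-118486132.

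The promoters of 3 genes that are high in members are shown because each holds the core letters of the T-box motif, the element that Eomes and T-bet recognise. Of the 6 rule genes, the 12 genes named as higher in members and Xcl1, 13 of 19 were found in the RefSeq promoter table (GRCm38.p6). The 250 bases before the start were searched on both strands for TCACACC (or its reverse complement), and 3 of the 13 held it, against 3.31% of all 27025 promoters in the table. The named genes were picked by their levels in these data, Xcl1 was added to them, and the motif was chosen after their values were seen. The share of all promoters is thus given for reference and tests nothing. The matches are in capitals, 5′ to 3′ on the gene's strand.
Nkg7, plus strand, chr7:43436888-43437137: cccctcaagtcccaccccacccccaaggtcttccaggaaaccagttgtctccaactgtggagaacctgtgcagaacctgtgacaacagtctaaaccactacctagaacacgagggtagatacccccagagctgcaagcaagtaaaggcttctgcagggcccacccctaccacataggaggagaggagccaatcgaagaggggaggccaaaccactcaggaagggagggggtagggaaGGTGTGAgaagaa
Gzmk, minus strand, chr13:113180966-113181215: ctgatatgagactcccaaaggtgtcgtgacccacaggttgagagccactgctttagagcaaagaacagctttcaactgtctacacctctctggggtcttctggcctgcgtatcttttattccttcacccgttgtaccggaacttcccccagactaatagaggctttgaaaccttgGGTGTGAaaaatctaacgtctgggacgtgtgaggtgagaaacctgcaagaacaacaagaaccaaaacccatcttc
Xcl1, minus strand, chr1:164935523-164935772: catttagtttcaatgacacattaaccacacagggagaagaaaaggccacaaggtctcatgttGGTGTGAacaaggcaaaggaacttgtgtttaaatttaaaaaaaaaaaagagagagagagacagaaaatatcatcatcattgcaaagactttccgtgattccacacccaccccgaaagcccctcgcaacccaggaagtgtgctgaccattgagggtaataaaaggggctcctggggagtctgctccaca
The match began 13 bases before the RefSeq start in Nkg7, 75 in Gzmk and 188 in Xcl1. The gene spans given here are from GENCODE and begin at other bases, and the Nkg7 and Gzmk matches lie inside their genes' GENCODE spans. A second motif, TGTGGT of the Runx factors, was in 6 of the 13 promoters and in 14.2% of all promoters. These are letter matches in chosen genes, so the shares do not test whether either motif is more common in them, and no binding was measured.

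Members were a small fraction of the sorted cells in both genotypes. They made up 1.42% of LatY136F cells (1.23 to 1.63, exact Clopper-Pearson interval) and 1.84% of CD45-KO cells (1.61 to 2.09). The rule needs UMIs, and members were deeper than the remaining cells, with medians of 2738 against 2149 UMIs in LatY136F and 2735.5 against 1985 in CD45-KO. After each cell was thinned to 1000 UMIs the rule found 68 of 13313 (0.511%) and 97 of 12475 (0.778%). The CD45-KO share was above the LatY136F share in all 17 settings run, by 1.11 to 1.69 times, and the lowest of these ratios came without the deepest 5% of each library (1.32% and 1.47%). Those deepest cells held 23 of 195 LatY136F members (11.8%) and 57 of 236 CD45-KO members (24.2%), against 4.91% and 4.64% of the remaining cells. Doublets were not called, and their part in this share was not tested.

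Most members passed the rule narrowly. Exactly 2 UMIs of the 6 genes were found in 82 LatY136F members (42.1%) and 65 CD45-KO members (27.5%), and 44 and 62 members carried 3 or more of the genes. Just outside the rule, 1488 LatY136F and 1007 CD45-KO cells carried 1 of the genes. The most common pair alone was Eomes with Ctsw (52 and 45 cells), and Nkg7 with Ctsw (36 and 36) and Nkg7 with Eomes (32 and 43) followed. Nkg7 had a UMI in 34 of 58 Ccl5 cells (58.6%) in LatY136F and 40 of 73 (54.8%) in CD45-KO, while it had a UMI in 3.74% and 2.66% of all cells. In cells with at least 2 B cell genes, which should lack the 6 genes, 1 of 9 LatY136F cells had Klrd1, and of 29 CD45-KO cells 1 had Nkg7 and 1 had Eomes. Those B-lineage cells were deeper than the members (medians of 6062 and 5425 UMIs), and none was a member.

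Receptor transcripts were found in members at shares near those of the remaining cells. All cells were sorted as CD3+CD5+, so the sort itself selected cells with a receptor complex and against NK cells. Trac, the constant region of the receptor's alpha chain, had a UMI in 97.4% of LatY136F and 91.9% of CD45-KO members, against 96.4% and 93.1% of the remaining cells. Cd3e was found in 84.6% and 78.0% of members and in 77.8% and 69.8% of remaining cells, and after thinning in 52.4% and 54.9% of members against 51.9% and 46.3%. In the 9 and 29 B-lineage cells, which should lack it and were deeper than the members, Trac had a UMI in 66.7% and 58.6% (24.1% of the CD45-KO cells after thinning) at 567 and 427 CPM, so a single receptor UMI does not mark a T cell. Ncr1, which marks NK cells, had no UMI in any LatY136F cell, which allows a UMI in up to 1.54% of members (3 of 195 cells), and was found in 3 CD45-KO members (1.27%, 0.263 to 3.67) and in no remaining CD45-KO cell. Tyrobp was found in 1 LatY136F member and 10 CD45-KO members (4.24%, 2.05 to 7.65), against 0.258% and 0.643% of remaining cells.

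**Figure D1:**
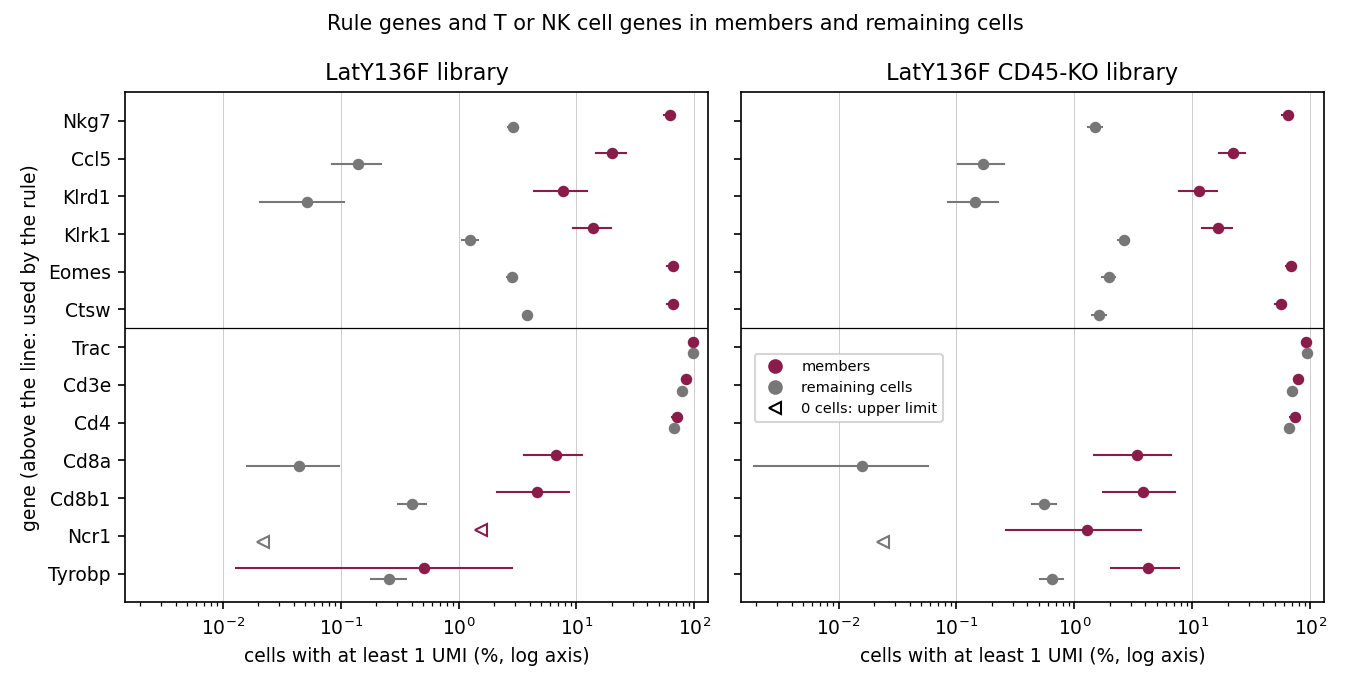
Share of cells with at least 1 UMI of each gene (log axis, percent) in members and remaining cells of both libraries, with exact intervals for counting error; open triangles mark the limit that 0 cells allow. Trac, Cd3e and Cd4 lie at like shares in members and remaining cells, while Cd8a is found in 6.67% and 3.39% of members and in 0.0443% and 0.0159% of remaining cells.

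The coreceptor of most members was CD4. Cd4 had a UMI in 71.3% of LatY136F and 73.7% of CD45-KO members, against 66.6% and 66.1% of remaining cells (46.6% and 47.2% against 41.6% and 43.5% after thinning). Cd8a, the alpha chain of the coreceptor of classical cytotoxic T cells, was found in 13 LatY136F members (6.67%, 3.60 to 11.1) and 8 CD45-KO members (3.39%, 1.47 to 6.57). In the remaining cells it was found in 6 of 13552 and 2 of 12598 cells, so 13 of 19 and 8 of 10 Cd8a cells were members. Cd8b1 was found in 9 members of each library and in 55 and 70 remaining cells. An antibody to CD4 was used in staining, but the labels describe the sort by CD3 and CD5 alone. A gate on CD4 would set these shares.

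Before members were sorted by these genes, Ncr1 cells and cells with at least 20 UMIs of Cd74 were set apart. Of the rest, 134 LatY136F members (68.7% of all members) and 165 CD45-KO members (69.9%) were Cd4 cells with no Cd8 UMI. A further 11 and 6 were Cd8 cells with no Cd4 UMI, and 4 and 3 held both. Neither coreceptor was detected in 45 (23.1%) and 52 (22.0%), against 33.3% and 33.5% of remaining cells. Members of this class had medians of 1887 and 2138 UMIs, against 3191 and 2735 in Cd4 members. Members were deeper than the remaining cells, and the part of depth in this share was not tested. Trdc, the constant region of the delta chain of gamma delta T cells, was found in 17 LatY136F and 8 CD45-KO members (8.72% and 3.39%), against 4.08% and 1.65% of the remaining cells. After thinning the Trdc shares were 4.19% and 2.13% of members against 2.60% and 1.02% of remaining cells. Of the 17 LatY136F Trdc members, 15 had a Trac UMI, 12 a Cd4 UMI and 17 a Trbc2 UMI, so the Trdc share is not a share of gamma delta T cells. Of the gamma delta list 2 genes were measured in LatY136F, 1 higher and 1 lower past the fold. In CD45-KO 1 was measured, and it was higher. In CD45-KO 14 of 36 Trdc UMIs of members lay in 1 cell, and its log2 ratio to the remaining cells was 1.22 with and 0.52 without that cell.

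A few members carried markers of other cell types. The 3 Ncr1 members of CD45-KO held 37 to 67 Ccl5 UMIs and 39 to 53 Gzma UMIs each, and 15, 1 and 16 receptor complex UMIs, with 5, 10 and 10 of 14 NK marker genes. A further 1 LatY136F and 7 CD45-KO members had at least 20 UMIs of Cd74, the class II invariant chain of antigen-presenting cells. Receptor complex transcripts were at 2100 and 1518 CPM in these cells, against 8521 and 6558 CPM in the Cd4 members. Klrd1 had a UMI in 1 of 1 and 6 of 7 of these cells, and none had Eomes. Of the 14 NK marker genes, none had a UMI in 160 of 195 LatY136F and 186 of 236 CD45-KO members, and 3 or more were found in 1 and 8 members. In LatY136F members 8 of the 14, among them Ncr1, Fcgr3 and 4 Klra genes, were at 0. The list summed to 118 CPM in LatY136F and 314 CPM in CD45-KO members, against 100 and 120 CPM in the remaining cells. Its genes went both ways, so the sum does not stand for each of them. Fcer1g was at 18.8 and 60.0 CPM in members against 4.68 and 19.8 CPM in remaining cells. Klrb1c was at 28.3 and 14.7 CPM against 1.96 and 2.18 CPM, while the integrin gene Itga2 was lower in members of both libraries. Tyrobp in CD45-KO members was higher than in the remaining cells by a log2 ratio of 1.98 with these cells and lower (-2.77, from 1 UMI) without the Ncr1 and Cd74-high cells. The B cell list summed to 424 and 1917 CPM in members and 188 and 423 CPM in remaining cells, with Ms4a1, Pax5 and Ebf1 at 0 in members of both libraries. Most of these sums came from Cd74 and the class II gene H2-Aa, which the list holds. They gave 190 and 77 of 270 list UMIs in LatY136F members and 1099 and 463 of 1565 in CD45-KO members. In the remaining cells they gave 5443 and 768 of 6519, and 8693 and 2631 of 12020. The myeloid list summed to 217 and 434 CPM in members and 211 and 301 CPM in remaining cells, and erythroid and platelet genes were at 0 in members.

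Against the remaining cells, members of both libraries had more Gzmk, Gzma, Slamf7, Bhlhe40 and Lag3 transcripts and fewer Itgb1, Itgb7, Gata3 and Il1rl1 transcripts. Gata3 and Il1rl1 were lower by at least 1.5-fold in CD45-KO members alone. With a threshold of 1.5-fold either way and at least 20 expected UMIs, 203 of 5132 genes (3.96%) were higher and 161 (3.14%) lower in LatY136F members. In CD45-KO members 434 of 5949 (7.30%) were higher and 393 (6.61%) lower. The counts for gene lists in this account are to be read beside these shares of all genes. Of 5065 genes measured in both libraries, 103 (2.03%) were higher in both and 57 (1.13%) lower in both. The median gene had a log2 ratio of 0.00 in both libraries. The 2 contrasts use separate cells and libraries, but the same rule.

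**Figure D2:**
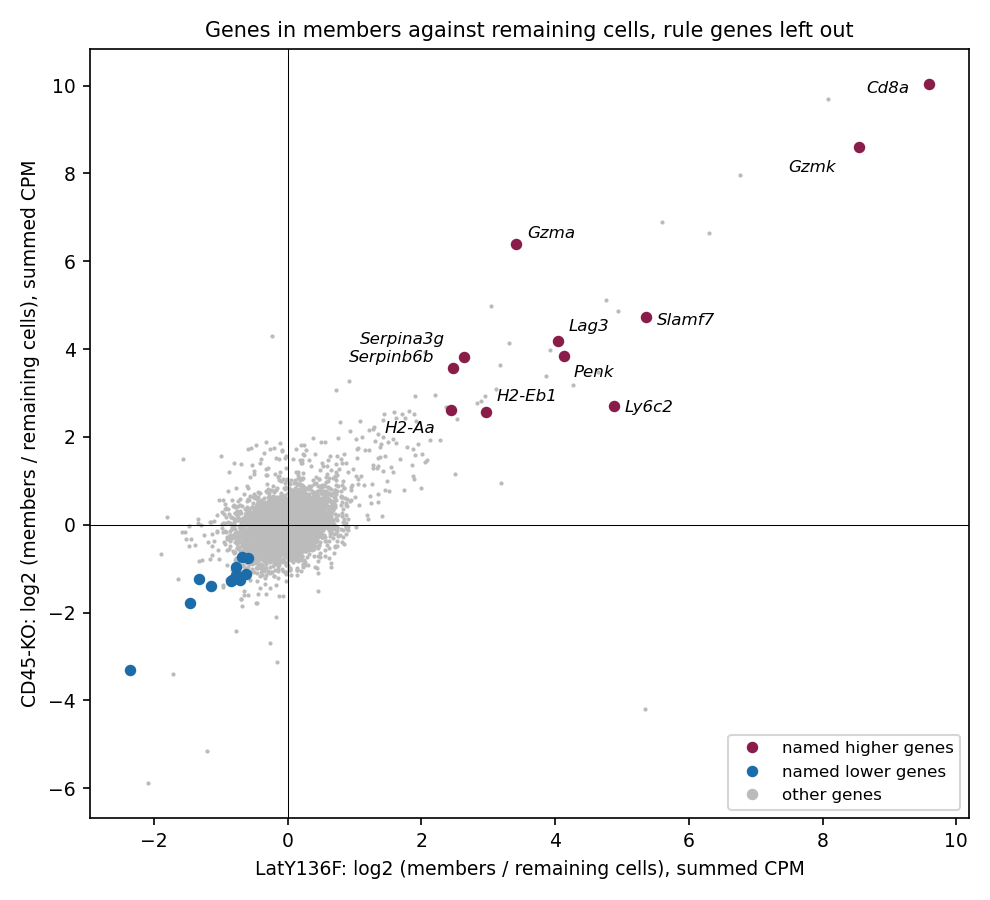
Log2 ratio of summed CPM in members over remaining cells, LatY136F on the x axis and CD45-KO on the y axis, 1 point per gene, without the 6 rule genes, receptor segments, mitochondrial, ribosomal and unnamed genes. Cd8a and Gzmk lie farthest from 0 among the named genes, Gzma lies higher on the CD45-KO axis (6.39) than on the LatY136F axis (3.42), and Igkc is the lowest of the named lower genes (-2.36 and -3.30).

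Among granule proteins, granzyme K was nearly restricted to members. Gzmk had 48 UMIs in 29 LatY136F members and 7 UMIs in 4 of 13552 remaining cells (75.4 against 0.202 CPM; log2 ratio 8.54, 7.39 to 9.93). In CD45-KO it had 100 UMIs in 31 members and 9 UMIs in 5 remaining cells (123 against 0.316 CPM; 8.60, 7.61 to 9.77). Gzma, granzyme A, was at 743 and 521 CPM in members but also had UMIs in 1042 remaining LatY136F cells (69.3 CPM) and 139 remaining CD45-KO cells (6.19 CPM), with log2 ratios of 3.42 (3.28 to 3.56) and 6.39 (6.14 to 6.66). Gzmb, granzyme B, was at 209 and 163 CPM in members against 127 and 19.4 CPM, and its ratios were 0.72 (0.46 to 0.97) and 3.07 (2.79 to 3.35). The pore protein gene Prf1 was rare, with 16 UMIs in 12 LatY136F members and 21 UMIs in 12 CD45-KO members (25.1 and 25.7 CPM, against 0.491 and 0.352 CPM).

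Serpinb9 and Serpinb6b, granzyme inhibitors of the serpin family that protect a cell from its own granzymes, were higher as well. Serpinb9 was at 126 and 195 CPM in members against 46.8 and 49.0 CPM (log2 ratios 1.42 and 1.99), and Serpinb6b at 94.2 and 217 CPM against 17.0 and 18.3 CPM (2.47 and 3.57). Of 15 genes in the granule list, 12 were measured in each library, and 6 in LatY136F and 7 in CD45-KO were higher past the fold, with none lower. Its median log2 ratios were 0.60 and 1.06. Among 12 genes of the release machinery 2 of 11 and 2 of 12 measured were higher past the fold and none lower (medians 0.10 and 0.18). Lyst, which controls the size of lytic granules, was the furthest of these at 1.87 and 1.71.

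Some receptors of effector cells were higher as well. Slamf7, an activating receptor of NK and cytotoxic cells, was at 137 and 243 CPM in members against 3.32 and 9.07 CPM (log2 ratios 5.36, 4.94 to 5.78, and 4.74, 4.47 to 5.01). Cxcr3, the receptor for interferon-induced chemokines, was at 31.4 and 96.8 CPM against 3.49 and 7.81 CPM (3.17 and 3.63). Il2rb, the beta chain of the receptors for interleukins 2 and 15, was at 436 and 413 CPM against 267 and 195 CPM (0.71 and 1.08). Il7r was close to the remaining LatY136F cells (-0.15) and lower in CD45-KO (937 against 1875 CPM). In the list of cytokine and chemokine receptors 4 of 9 measured genes in LatY136F and 6 of 12 in CD45-KO were higher past the fold, and 0 and 1 lower (medians 0.13 and 0.46).

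Some transcription factors of type 1 effector cells were also higher. Tbx21 had 11 UMIs in 10 LatY136F members and 18 UMIs in 15 CD45-KO members (17.3 and 22.1 CPM against 0.924 and 1.62 CPM). Bhlhe40, a factor that sustains interferon-gamma production, was at 59.7 and 98.0 CPM against 11.5 and 15.3 CPM (log2 ratios 2.37 and 2.68), and Hopx, found in effector-memory cells, at 146 and 156 CPM against 33.4 and 40.9 CPM (2.13 and 1.93). In this list 4 of 8 measured genes in LatY136F and 5 of 9 in CD45-KO were higher past the fold, none lower (medians 0.58 and 0.60). Runx3, a factor of CD8 lineage cells, differed little (0.30 and 0.12), and Zbtb7b, a factor of the CD4 lineage, was at -0.57 and -0.33. The effector cytokine gene Ifng had 7 and 13 UMIs in 7 and 11 members.

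Some genes of follicular helper and chronically stimulated cells were also higher in members. Izumo1r, the folate receptor family protein of follicular helper and regulatory cells, was at 339 and 412 CPM against 133 and 143 CPM (log2 ratios 1.35 and 1.52). Sh2d1a, the adaptor SAP, was at 105 and 145 CPM against 42.5 and 38.8 CPM, and Tox2, a factor of follicular helper cells, at 1.29 and 2.22. Of 14 follicular helper genes 4 of 6 measured in LatY136F and 6 of 10 in CD45-KO were higher past the fold, none lower. In CD45-KO Cxcr5, the homing receptor of follicular helper cells, was the furthest (2.51). Lag3, an inhibitory receptor that binds class II molecules, was at 148 and 104 CPM against 8.92 and 5.77 CPM (4.05 and 4.17). In LatY136F 40 of its 94 UMIs lay in 1 of 11 cells, and the ratio was 3.26 without that cell. Btla, an inhibitory receptor of helper cells, was at 1.10 in both libraries and Tigit, another, at 0.74 and 1.13. The inhibitory list had 4 of 9 measured genes higher in LatY136F and 7 of 11 in CD45-KO, none lower (medians 0.27 and 1.13). Pdcd1, which encodes PD-1, was at 36.1 against 29.9 CPM in LatY136F and 89.4 against 27.6 CPM in CD45-KO (0.27 and 1.69).

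Gata3 and Il1rl1, genes of Th2 cells, were below the remaining cells in both libraries, past the fold in CD45-KO alone; whether the libraries differ was not tested. Gata3, the lineage factor of Th2 cells, was at 686 CPM in LatY136F members against 1024 CPM (log2 ratio -0.58, -0.72 to -0.44) and at 528 against 975 CPM in CD45-KO (-0.88, -1.03 to -0.75). Il1rl1, the receptor for interleukin 33, was at 392 against 542 CPM in LatY136F (-0.47) and 198 against 678 CPM in CD45-KO (-1.77, -2.01 to -1.55). Il4 had 21 UMIs in 12 LatY136F members, near the level of the remaining cells (33.0 against 36.7 CPM), and 3 UMIs in 3 CD45-KO members (3.68 against 32.1 CPM; -3.13, -5.41 to -1.57). Of 16 Th2 genes, 1 of 6 measured in LatY136F and 0 of 4 in CD45-KO were higher past the fold and 1 and 2 lower (medians -0.46 and -0.59). Of all genes 3.96% and 7.30% were higher and 3.14% and 6.61% lower. With so few list genes measured, these counts do not describe the list. In LatY136F the higher gene was Ecm1 (0.66), an extracellular matrix protein of Th2 cells, and the lower was Ccr4 (-0.76), a chemokine receptor of Th2 cells, which was at 0.21 in CD45-KO.

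The named genes furthest below the remaining cells were of several kinds, integrin chains among them. Itgb1, the beta 1 integrin chain, was at 2311 and 2198 CPM in members against 3479 and 3704 CPM (log2 ratios -0.59 and -0.75), and Itgb7, the beta 7 chain of the gut-homing integrin, at 330 and 251 CPM against 591 and 598 CPM (-0.84 and -1.25). Rnf144a, a ubiquitin ligase gene, was at 168 and 160 CPM against 372 and 422 CPM (-1.15 and -1.40). Cysltr1, a receptor for cysteinyl leukotrienes, was at 278 and 154 CPM against 503 and 377 CPM (-0.86 and -1.29). Smco4, Cdc25b, Sun1, Ddit4, Zfp36 and Emb had ratios between -1.33 and -0.63 in LatY136F and between -1.26 and -0.74 in CD45-KO. Igkc and Ighm, immunoglobulin genes of B cells, were also lower in CPM (-2.36 and -3.30, -1.46 and -1.78), and the remaining cells hold all B-lineage cells. By cells Igkc went the other way, with a UMI in 10.3% of members against 8.45% of remaining cells in LatY136F and 37.3% against 26.1% in CD45-KO, and Ighm was found in 5.64% against 7.15% and in 8.90% against 6.47%. No member held more than 2 Igkc UMIs in LatY136F or 5 in CD45-KO. Members were deeper than the remaining cells, and the part of depth in these shares was not tested. Itga2, an integrin chain that marks NK cells, was lower in members too (-0.71 and -1.07).

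Of the early genes of receptor stimulation, 7 of 19 measured genes were lower past the fold and 2 higher in CD45-KO members, and 1 of 17 was lower and 2 higher in LatY136F members (medians -0.52 and -0.21). Among all genes 6.61% were lower and 7.30% higher in CD45-KO members, and 3.14% and 3.96% in LatY136F members. Egr3 was at -0.66 and -1.60, while the phosphatase gene Dusp2 was at 1.05 and 0.93. The T cell receptor complex and surface list had 0 of 16 genes past the fold in either library (medians 0.14 and 0.21).

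Slamf7, Gzmk and Gata3 were graded by how many of the 6 genes a cell carried. From cells with 0, 1, 2 and 3 or more of the genes, Slamf7 was at 2.08, 12.1, 65.5 and 370 CPM in LatY136F and 6.52, 33.5, 209 and 317 CPM in CD45-KO. Gzmk was at 0, 1.63, 20.5 and 256 CPM in LatY136F and 0.0777, 2.60, 42.8 and 297 CPM in CD45-KO. Gzma was at 231 CPM in LatY136F and 8.92 CPM in CD45-KO cells with 2 of the genes, and at 2425 and 1642 CPM in cells with 3 or more. Gata3 went the other way, at 1025, 1014, 792 and 337 CPM in LatY136F and 982, 902, 642 and 278 CPM in CD45-KO. Il1rl1 was at 544 CPM in cells with none of the genes and 114 CPM in cells with 3 or more in LatY136F, and at 681 and 58.6 CPM in CD45-KO. Trac, which every T cell needs, lay between 2063 and 2303 CPM in LatY136F and between 1520.2 and 1846 CPM in CD45-KO.

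**Figure D3:**
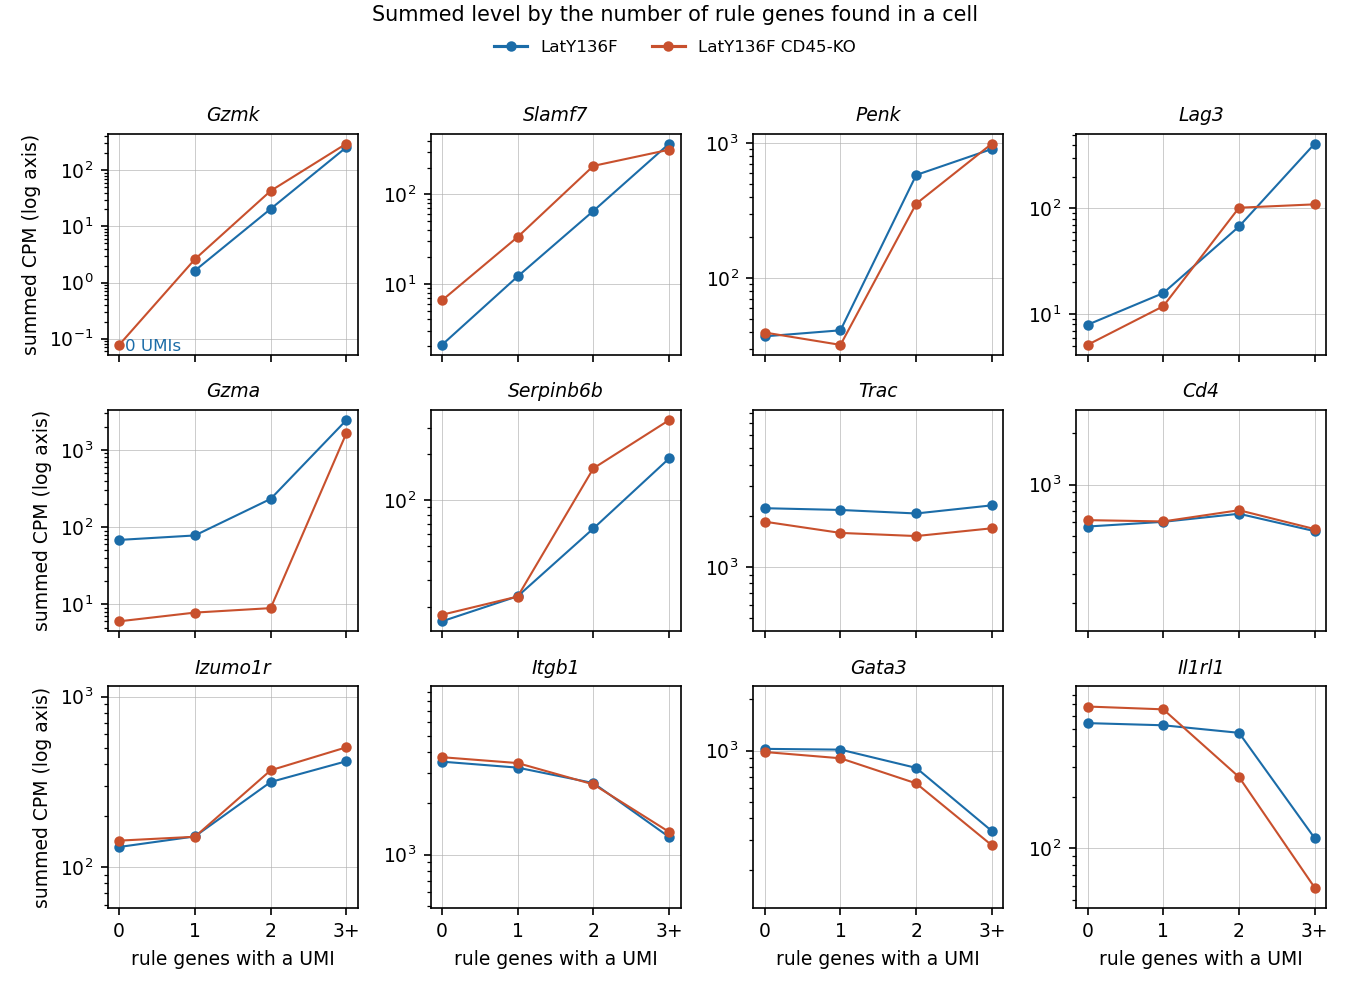
Summed CPM of 12 genes (log axes that differ between panels) in cells with 0, 1, 2 or 3 and more of the 6 rule genes, for both libraries. Gzmk and Slamf7 are higher at each step, Gata3, Il1rl1 and Itgb1 are lowest at 3 or more, and Trac and Cd4 stay within a narrow range.

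In the Cd4 members alone Gzmk, Slamf7 and Lag3 were again higher and Gata3 lower than in the remaining cells. Both groups were Cd4 cells with no Cd8 UMI, with Ncr1 and Cd74-high cells left out. In LatY136F members 146 of 4278 genes (3.41%) were higher and 138 (3.23%) lower, and in CD45-KO members 333 (7.05%) and 316 (6.69%) of 4724. Gzmk had log2 ratios of 7.58 and 8.66, Slamf7 of 5.84 and 6.57 and Lag3 of 4.19 and 3.98. Gata3 was at -0.54 and -0.74. Gzma was lower than in all members, at 207 and 38.1 CPM (1.57 and 2.67). Of 473 Gzma UMIs in LatY136F members, 206 lay in Cd8 members (6886 CPM), 108 in members with neither coreceptor, 99 in Cd4 members and 60 in those with both. Of 425 in CD45-KO members, 228 lay in Cd8 members (5089 CPM), 144 in the 3 Ncr1 members and 21 in Cd4 members. In the Cd8 members Ccl5 was at 4646 CPM (11 of 11 cells) in LatY136F and 67.0 CPM (1 of 6 cells) in CD45-KO, and Gzmk was found in 8 of 11 and 0 of 6 cells. Klrd1 went the other way, found in 1 of 11 and 6 of 6 Cd8 members. Ccl5 and Klrd1 are among the 6 genes that chose these cells, so their shares only describe a few selected cells. The Cd8 members had median depths of 2592 UMIs in LatY136F and 6592.5 in CD45-KO, and the part of depth was not tested.

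Penk, the gene of the opioid precursor proenkephalin, was among the most abundant of the higher genes. It was at 655 CPM in LatY136F members (18 cells) and 554 CPM in CD45-KO members (35 cells), against 37.5 and 38.8 CPM (log2 ratios 4.13 and 3.84). A single LatY136F cell held 171 of 417 UMIs, and the ratio without it was 3.38. None of the 11 and 6 Cd8 members had a Penk UMI. Ly6c2, a surface protein of memory and effector cells, was at 146 and 143 CPM against 4.97 and 21.9 CPM (4.88 and 2.71), and Serpina3g, a serpin of activated T cells, at 65.9 and 69.8 CPM against 10.6 and 4.92 CPM (2.64 and 3.83). H2-Aa and H2-Eb1, class II genes, were higher too (2.45 and 2.62, 2.97 and 2.58), but 76 of 77 UMIs of each lay in 1 LatY136F cell, without which the LatY136F ratios were -3.80 and -3.28.

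Between genotypes, CD45-KO members had more Xcl1, Crtam and Serpinb6b and fewer Camk2b, Trdc and Dok2 transcripts than LatY136F members. With the same fold, 354 of 5174 genes (6.84%) were higher and 375 (7.25%) lower in CD45-KO members. In the remaining cells 946 of 11698 (8.09%) were higher and 829 (7.09%) lower. With 1 library per genotype, genotype, capture and mice cannot be told apart, and no difference between members and remaining cells was tested.

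Xcl1, a chemokine that attracts cross-presenting dendritic cells, had 33 UMIs in 7 LatY136F members and 274 UMIs in 30 CD45-KO members (51.8 and 336 CPM; log2 ratio 2.70, 2.17 to 3.26), and 1.07 and 2.81 CPM in the remaining cells (1.40). Without the 1 CD45-KO member with the most UMIs (86) the ratio was 2.17, and without the LatY136F member with 14 it was 3.48. Of these UMIs, 33 in LatY136F and 216 in CD45-KO lay in Cd4 members. Crtam, an adhesion receptor of CD4 T cells that acquire cytotoxic function and of NK cells, had 5 UMIs in 5 and 47 UMIs in 31 members (2.87, 1.55 to 4.56; remaining cells 0.94). Serpinb6b was higher in members (1.20, 0.77 to 1.65) and near equal in the remaining cells (0.11). Cxcr3 and Tox were at 1.62 and 0.92 in members, and at 1.16 and 0.33 in remaining cells, and Pdcd1 at 1.31 (0.62 to 2.05) and -0.12.

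Summed over all members, Gzma and Gzmb differed less between genotypes than in the remaining cells, as values side by side, while Gzmk and Gzmc did not. Gzma had a log2 ratio of CD45-KO over LatY136F of -0.51 (-0.70 to -0.32) in members and -3.49 (-3.71 to -3.26) in remaining cells, and without the CD45-KO member that held 128 of 425 UMIs it was -1.01 in members. The Gzma value of members rests on few cells, as most CD45-KO member UMIs lay in the Cd8 and Ncr1 members. In members with 2 of the rule genes Gzma was at 231 CPM in LatY136F and 8.92 CPM in CD45-KO. In members with 3 or more it was at 2425 and 1642 CPM. Gzmb was at -0.36 and -2.71, and at -0.84 in members without the CD45-KO member that held 40 of 133 UMIs. Gzmk was at 0.70 (0.19 to 1.23) in members and 0.65 (-0.95 to 2.31) in remaining cells. Gzmc was at -2.61 in members and -0.38 in remaining cells, but in members 37 of 43 LatY136F UMIs lay in 1 cell, without which its ratio was 0.21, and 8 of 9 CD45-KO UMIs lay in 1 cell, without which it was -5.77.

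Several of the higher genes belong to antigen-presenting cells. Cd209a, a lectin of dendritic cells, had no UMI in LatY136F members and 59 UMIs in 7 CD45-KO members, at least 3.94 higher on the log2 scale against a floor of 3 counts over the members. Cd74 (298 and 1346 CPM; 2.17), H2-Ab1 (2.44), H2-Aa (2.23) and Plbd1, a phospholipase-like protein of myeloid cells (3.34), went with it, and Spp1, which encodes osteopontin, had 1 and 55 UMIs (5.42, 2.89 to 10.75, and 4.66 without the cell that held 23 of the 55). Cd209a UMIs were all in the 7 Cd74-high CD45-KO members. In LatY136F 1 cell held 138 of 190 Cd74 UMIs, 75 of 76 H2-Ab1 UMIs and 76 of 77 H2-Aa UMIs, and without that cell the ratios were 4.03, 8.67 and 8.48. Without the deepest 5% of cells Cd74 was at -0.43. Igkc (2.15 in members, 3.10 in remaining cells), Ifi208, an interferon-inducible gene (2.08 and 2.63), and Ms4a6c (1.87 and 1.11) were higher in members and remaining cells alike. Gcg, which encodes proglucagon, had 83 of its 95 CD45-KO UMIs in 1 cell, and its ratio was 3.89 with and 0.92 without that cell.

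Of the lower genes, Camk2b, a subunit of a calcium-dependent kinase, had 45 UMIs in 34 LatY136F members and 4 UMIs in 4 CD45-KO members (-3.85, -5.79 to -2.39), against -1.44 in remaining cells. Trdc was lower in both (-1.82 and -1.61), and at -2.52 in members without the CD45-KO member that held 14 of 36 UMIs. Dok2, an adaptor that dampens receptor signalling, was at 316 and 129 CPM (-1.29, -1.65 to -0.95) and at -0.80 in remaining cells, and Trat1, a receptor-associated adaptor, at -1.14 and -0.95. Smtn (-2.22), F2rl2 (-2.12), Pim3 (-1.52), Trpm6 (-1.39), Ass1 (-1.38) and Cish (-1.23), an inhibitor of cytokine signalling, were lower in members, with -1.10, -1.87, -0.90, -0.71, -0.40 and -0.35 in the remaining cells. Hdc, the histamine-forming enzyme, was at -1.42, and at -0.13 without the LatY136F member that held 44 of 73 UMIs. Il1rl1 was lower in members (-0.98, -1.28 to -0.69) and higher in the remaining cells (0.32).

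Cell cycle genes were higher in CD45-KO members than in the CD45-KO remaining cells, which was not seen in LatY136F, and most of their UMIs lay in very deep cells. In LatY136F members 0 of 28 measured cell cycle genes were higher than in the remaining cells past the fold and 4 were lower (median log2 ratio -0.05). In CD45-KO members 27 of 29 were higher and none lower (median 1.39). Between genotypes 32 of 35 were lower in the CD45-KO remaining cells and none higher (median -1.19), while in members 10 of 31 were higher and 3 lower (median 0.34). Mki67, a nuclear protein of cycling cells, was at 235 and 388 CPM in members and 289 and 159 CPM in remaining cells.

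By cells, at least 10 UMIs of the 35 list genes were found in 16 of 195 LatY136F members (8.21%, 4.76 to 13.0) and 22 of 236 CD45-KO members (9.32%, 5.93 to 13.8). The remaining cells had 6.86% (6.44 to 7.29) and 2.21% (1.96 to 2.49). After thinning to 1000 UMIs, with at least 5 list UMIs, the shares were 6.28% and 7.66% of members and 5.90% and 1.84% of remaining cells. In CD45-KO members with 3 or more of the rule genes 9 of 62 held that many (14.5%, 6.86 to 25.8), and in LatY136F 3 of 44 (6.82%, 1.43 to 18.7). These were deep cells: 21 of the 22 CD45-KO and 11 of the 16 LatY136F members were among the deepest 5%, and without those cells the order of the member shares turned. They were then 0.559% of CD45-KO members (1 of 179) and 2.91% of LatY136F members (5 of 172), and 0.574% and 3.39% of the remaining cells. Between CD45-KO members and remaining cells the list median was then 0.01 over 4 measured genes. Among Cd4 cells with no Cd8 UMI the median of CD45-KO members over remaining cells was 0.93, and that of CD45-KO over LatY136F members was -0.06. The part of depth and doublets in these values was not tested.

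**Figure D4:**
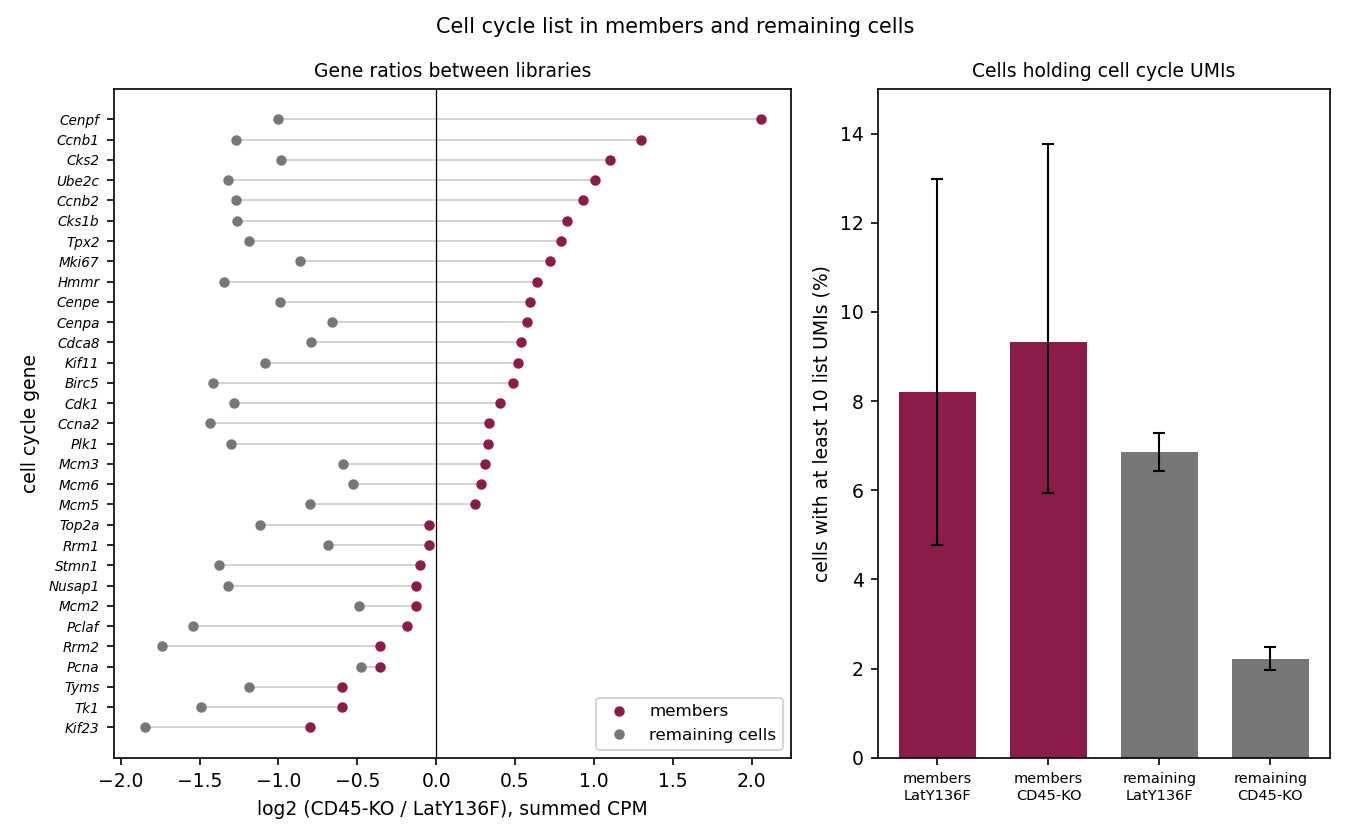
Left, log2 ratio of CD45-KO over LatY136F summed CPM for the cell cycle genes measured in members, in members and in remaining cells; right, share of cells with at least 10 UMIs of the list, with exact intervals for counting error. All points of the remaining cells lie below 0, 20 of 31 member points lie above 0, and the bar of CD45-KO remaining cells (2.21%) is below the other bars.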

How the data were processed

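The deposited files hold raw UMI counts per cell and gene, with cells in rows. The pipeline was BD WTA Multiplex Rhapsody 1.9.1 with GRCm38 and GENCODE M19, per the file headers, which were followed here. Other labels differ: version 2.0 of the pipeline and Seurat 4.04 in the design text, and GRCm39 in the submitters' processing notes. Gene locations are from GENCODE M21.

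The files held 13775 and 12845 cells with 35300371 and 29268453 UMIs, of which 28 and 11 cells were removed. Of 22686 genes in either file 18318 were in both, and an absent gene was given 0. The libraries share 223 cell barcodes, of which 3 belong to members in each library.

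Counts were summed per group with Python 3.11.15, numpy 2.4.6 and scipy 1.17.1. Ratios of CPM have exact conditional binomial intervals, shares have Clopper-Pearson intervals, and a count of 0 was set to 3. A gene counted as past the fold at 1.5-fold with at least 20 expected UMIs in the smaller group. No test was run, because each genotype has 1 library. The computation was tested on simulated data. No doublet caller was run, and an alternative left out the deepest 5% of each library.

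The members and lists were chosen with earlier results of these data known. Named are the genes that tell T cells from NK cells, the 12 highest and 12 lowest genes of each contrast by the interval bound nearest 0 (between libraries with at least 50 CPM), and up to 4 genes of each list. Ptprc is the targeted gene. Ifng, Il4, Il7r, Mki67, Prf1, Serpinb9 and both promoter motifs were chosen after their values were seen. A few items that this rule or the lists hold are not reported here. Alternatives are given in the closing section.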

Additional observations from a re-analysis of the deposited data

Results flagged for a closer look

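For 8 cell cycle genes the contrast went one way in one group of cells and the other way in the other, and the difference was not tested. Log2 ratios of CD45-KO over LatY136F were above 0 in members and below 0 in the remaining cells. They were 2.06 and -1.01 for Cenpf, a centromere protein with UMIs in 6 LatY136F and 11 CD45-KO members, and 1.30 and -1.27 for Ccnb1, cyclin B1. They were 1.10 and -0.99 for Cks2, 1.01 and -1.32 for Ube2c, 0.93 and -1.27 for Ccnb2 and 0.83 and -1.26 for Cks1b. For Tpx2, a spindle factor, they were 0.79 and -1.19, and for Mki67, with UMIs in 36 and 46 members, 0.72 and -0.86.

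The members over remaining cells went opposite ways in the libraries for 4 of these genes. Their log2 ratios in LatY136F and CD45-KO were -0.80 and 1.39 for Ccnb2, -0.71 and 1.38 for Cks1b, and -0.88 and 1.21 for Cks2. Ube2c was at -0.60 and 1.73, and its UMIs came from 13 LatY136F and 14 CD45-KO members. Of the 22 CD45-KO members with at least 10 list UMIs, 21 were among the deepest 5% of cells. Without the deepest cells the shares with that many list UMIs were 0.559% of CD45-KO and 2.91% of LatY136F members, against 9.32% and 8.21% with them, and the part of depth in these values was not tested.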

How the results depend on the processing

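No paired analysis was possible because each genotype has 1 library. Among the shares and counts of genes past the fold, 114 values under the alternatives stayed close to the reported ones (shares within the interval, counts within 1.5 times) and 38 moved. For single named genes 1298 values stayed close, 323 moved and 29 turned direction. The 2 rules that leave out Ncr1 and Cd74-high cells or keep Cd4 cells alone, and the one without shared barcodes, were chosen after seeing the data. The causes were not tested, except that fewer members leave fewer genes measured.

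The LatY136F and CD45-KO shares were 0.320% and 0.483% with at least 3 rule genes, 0.851% and 1.09% without Nkg7, 0.764% and 0.997% without Eomes, 0.684% and 1.15% without Ctsw, and 0.511% and 0.778% after thinning. Without the deepest 5% of cells the CD45-KO share was 1.47%.

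With at least 3 rule genes 115 genes were higher in LatY136F members and 280 in CD45-KO members than in the remaining cells. After thinning these were 125 and 250, with 257 lower in CD45-KO. Without the deepest 5%, 205 were higher and 182 lower in CD45-KO. With at least 50 expected UMIs 54 were higher and 52 lower in LatY136F, and 162 and 188 in CD45-KO. With no minimum these were 2277 and 1189, and 2817 and 1371. Between the members of both genotypes, 101 were higher and 122 lower in CD45-KO with at least 3 rule genes, 116 and 153 after thinning, 88 and 108 with at least 50 expected UMIs, 1940 and 1550 with no minimum, and 192 and 219 without Ctsw. Without Nkg7 and without Eomes 222 were higher.

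The class II genes H2-Aa and H2-Eb1 turned lower in LatY136F members in 7 settings, some of them with 0 UMIs set to 3 counts. Their log2 ratios were -0.25 and -1.37 with at least 3 rule genes, -3.91 and -3.44 without Klrd1, -3.84 and -3.37 without Klrk1, -0.52 and -1.62 after thinning, -2.35 and -1.77 without B or myeloid cells, -2.06 and -1.45 without the deepest 5%, and -1.87 and -1.36 without Ncr1 and Cd74-high cells. In CD45-KO they were -0.45 and -0.64 without Klrd1 and -0.98 and -2.17 without the deepest 5%. Without Ncr1 and Cd74-high cells H2-Aa was at -0.145 and Tyrobp at -2.77 in CD45-KO. Between genotypes F2rl2 was at 1.22 and Pim3 at 0.22 with at least 3 rule genes, and Hdc at 1.24 without Nkg7 and 0.70 after thinning. Gcg was at -1.44 with at most 10% mitochondrial counts, -1.30 after thinning and -2.17 without the deepest 5%, where Cd74 was at -0.43 and Gzmc at 0.15.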

Other observations

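Memory genes of the members, as values without a test, were higher for some and lower for others. Cd27, a costimulatory receptor of memory cells, was at 59.7 and 96.8 CPM in LatY136F and CD45-KO members against 14.1 and 35.1 CPM in the remaining cells (log2 ratios 2.08 and 1.47). Id3, a repressor of E proteins, was near the remaining cells in LatY136F (-0.17) and lower in CD45-KO (-2.10, -2.97 to -1.35). Tcf7, the factor of naive and memory cells, differed little (-0.09 and -0.27). In this list 4 of 14 measured genes were higher past the fold and 1 lower in LatY136F members, and 5 and 5 of 15 in CD45-KO members. The shares of all genes were 3.96% higher and 3.14% lower in LatY136F, and 7.30% and 6.61% in CD45-KO.

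Of the genes of regulatory T cells 1 of 5 measured was higher past the fold in each library, and 0 and 1 lower. Foxp3, their lineage factor, had 10 UMIs in 3 LatY136F members and 1 UMI in 1 CD45-KO member. None of the heat shock genes passed the fold in members over remaining cells (8 and 9 measured). Of the interferon response genes 0 of 19 in LatY136F and 1 of 21 in CD45-KO were higher past the fold, none lower. Of the type 1 cytokine and chemokine genes 0 of 2 measured passed the fold in LatY136F, and 1 of 3 was higher and 1 lower in CD45-KO. Of the other receptors of NK type 1 of 3 measured was higher in LatY136F and 5 of 6 in CD45-KO. For scale, 3.96% of all genes were higher and 3.14% lower in LatY136F members, and 7.30% and 6.61% in CD45-KO members. Where few genes of a list were measured, 1 gene past the fold does not describe the list. Between genotypes 2 of 8 heat shock genes were higher in CD45-KO members (median log2 ratio 0.49) and 6 of 12 in CD45-KO remaining cells (0.55), none lower in either. The shares of all genes that were higher were 6.84% in members and 8.09% in remaining cells.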
